A study of Mus musculus with 32 samples.

Results

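Ide and 5 genes that lie near it on mouse chromosome 19, Btaf1, Fgfbp3, Cpeb3, March5 (now also called Marchf5) and Exoc6, were followed in the spinal cord of every mouse, as 6 of the 42524 genes in the count table. They were picked by name after Ide had been seen to be low in OKN-007 treated WT mice of 155 days, so the values of those mice chose them. Values from the WT groups of 155 days are therefore given as a description, without a p-value, and single genes are tested only in comparisons that do not hold those groups. All 6 genes passed the filter on low counts in each comparison, with 229 to 3410 reads per gene and mouse.

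RNA of 32 mice was sequenced, 4 in each of 8 groups formed by genotype, treatment and age. The WT mice were wildtype littermates on the C57BL/6J background, and the G93A mice carried the SOD1-G93A transgene, a human SOD1 gene with a mutation that causes amyotrophic lateral sclerosis, on the same background. Mice of either genotype were untreated or received OKN-007, a nitrone with antioxidant and anti-inflammatory properties, in drinking water. The labels give the ages as 90 and 155 days, while the text of the study places the earlier group a few days later, near disease onset. The dose of the sequenced mice was not named. In the design of the study, the cohorts killed near these ages received the higher of its doses, begun before or near disease onset. Each sample was a weighed piece of spinal cord. Mouse numbers below are those of the labels, which run from 1 to 16 at each age. Human SOD1 has no row in the mouse table, so the transgene could not be checked, and in 32 of 32 mice Xist exceeded the Y-linked genes. Single libraries stood apart in markers of other tissue. The 3 Schwann cell markers summed to 1113 CPM in untreated WT mouse 3 and 208 CPM in untreated G93A mouse 10 of 90 days and to at most 33.1 CPM in the other mice, where the median over all mice was 0.983 CPM. The 3 liver markers summed to 162.9 CPM in untreated G93A mouse 12 and 112.3 CPM in treated G93A mouse 15 of 155 days, against a median of 2.64 CPM. In the other mice they summed to at most 62.4 CPM, in treated WT mouse 6 of 90 days. Leaving out any 1 of the 4 mice highest in these markers changed no call of the 6 genes in the comparisons where single genes were tested. Values without them, or the range over leaving out each mouse, stand beside many of the main results. Levels are CPM, reads of a gene as a share of the reads of its mouse, after TMM normalisation, a scaling that makes libraries of unequal composition comparable. Separate libraries were labelled as separate mice, and p-values measure the spread between those mice. In bulk tissue, fewer cells of a type and less RNA per cell cannot be told apart.

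The 6 genes have unrelated products. Ide encodes insulin-degrading enzyme, a zinc metallopeptidase that cleaves insulin, amyloid-beta and other small peptides. Btaf1 encodes an ATPase that removes TATA-binding protein from DNA. Fgfbp3 encodes a secreted carrier that releases fibroblast growth factors from the matrix, Cpeb3 an RNA-binding protein that controls translation at synapses, March5 a ubiquitin ligase of the mitochondrial outer membrane, and Exoc6 a subunit of the exocyst, which tethers secretory vesicles to the plasma membrane. As background from the mouse strain, C57BL/6J mice are known to differ from one another in the number of genomic copies of Ide and Fgfbp3. DNA was not measured here.

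In the GENCODE M21 annotation of GRCm38, Ide lies at chr19:37268743-37337852 on the minus strand. Btaf1 lies at chr19:36926079-37012752 on the plus strand and Fgfbp3 at chr19:36917550-36919615 on the minus strand, so these neighbours point away from each other with 6.46 kb between their coding starts. Cpeb3 at chr19:37021291-37208601 (minus) and March5 at chr19:37207543-37222151 (plus) stand between that pair and Ide, and Exoc6 at chr19:37550418-37684059 (plus) lies beyond Ide. The starts of Cpeb3 and March5 overlap head to head over 1059 bases on opposite strands. The library kit keeps the strand, but the strand setting of the counting is not given in the sources used here, so reads from that overlap may be shared. The pseudogene Rpl10-ps6 within Ide had at most 23 reads in a mouse, and the antisense gene A330032B11Rik within Cpeb3 at most 14, against at least 870 and 661 reads for their hosts.

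The sequences before the starts of Ide, Btaf1 and Fgfbp3 are shown because these 3 genes were low in the same mice. They are RefSeq promoter windows on GRCm38.p6, written 5′ to 3′ on the strand of the gene. The Ide window is chr19:37334545-37334794, the Btaf1 window chr19:36925829-36926078 and the Fgfbp3 window chr19:36919616-36919849, where 16 bases that GENCODE places in the transcript were left off. The RefSeq start of Ide lies 3.93 kb upstream of the coding transcript start in GENCODE, so its window may not be the promoter of the main transcript. That window also lies inside the span of the whole Ide gene in GENCODE, whose start is at 37337852. Capitals mark matches on either strand to any of 7 motifs, and no matches overlapped in these windows. The TATA box was searched as the letters TATAAA, and the GC box was searched as the letters GGGCGG. The E-box was searched as the letters CACGTG and the ETS core as the letters CCGGAAG, the antioxidant response element core as TGACNNNGC and the cyclic AMP response element as TGACGTCA, and the CCAAT box is named by its letters.
Ide: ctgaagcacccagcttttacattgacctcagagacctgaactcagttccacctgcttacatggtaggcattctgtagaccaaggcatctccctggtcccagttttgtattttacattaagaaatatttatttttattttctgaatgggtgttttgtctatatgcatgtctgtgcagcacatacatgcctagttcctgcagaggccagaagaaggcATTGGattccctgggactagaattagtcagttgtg
Btaf1: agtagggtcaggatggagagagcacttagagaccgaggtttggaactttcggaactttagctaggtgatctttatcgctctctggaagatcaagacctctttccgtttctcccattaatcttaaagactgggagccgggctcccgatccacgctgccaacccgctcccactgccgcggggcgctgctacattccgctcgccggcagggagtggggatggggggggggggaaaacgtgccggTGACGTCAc
Fgfbp3: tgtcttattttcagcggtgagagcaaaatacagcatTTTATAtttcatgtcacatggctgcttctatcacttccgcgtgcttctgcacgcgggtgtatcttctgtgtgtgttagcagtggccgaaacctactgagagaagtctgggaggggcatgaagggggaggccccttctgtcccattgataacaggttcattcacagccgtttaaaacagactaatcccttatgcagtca

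The 3 windows shared no motif at a like position. Btaf1 had a cyclic AMP response element from -9 to -2 relative to its start, a match present in the 250 bases before the start of 1.62% of 27025 genes. Ide had an inverted CCAAT box from -35 to -31, present in 34.5% of genes, and Fgfbp3 an inverted TATA box from -214 to -209, present in 12.97%. A further CCAAT box of Fgfbp3, from -5 to -1, falls in the bases left off. GC boxes (32.9% of genes) were found before the starts of Cpeb3, March5 and Exoc6, and none of these 6 genes had a match to the E-box (6.05%), the antioxidant response element core (10.2%) or the ETS core (7.05%). A match or its absence says only which letters stand in the window.

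Ide was low in 1 of the 8 groups. Its group mean was 36.4 ± 3.52 CPM (SD, n = 4) in OKN-007 treated WT mice of 155 days. The other means, in rising order, were 58.1 ± 3.63 CPM in untreated WT mice of 90 days, 63.8 ± 6.001 CPM in untreated G93A mice of 90 days, 66.2 ± 3.04 CPM in treated WT mice of 90 days, 69.0 ± 15.9 CPM in untreated WT mice of 155 days, 69.0 ± 4.07 CPM in treated G93A mice of 90 days, 72.1 ± 13.9 CPM in untreated G93A mice of 155 days and 82.6 ± 4.08 CPM in treated G93A mice of 155 days. The lowest group stood below every other mouse, and each later step in this order was smaller than the spread, with overlapping ranges. Over the 32 mice Ide ranged from 32.5 to 87.4 CPM.

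**Figure D1:**
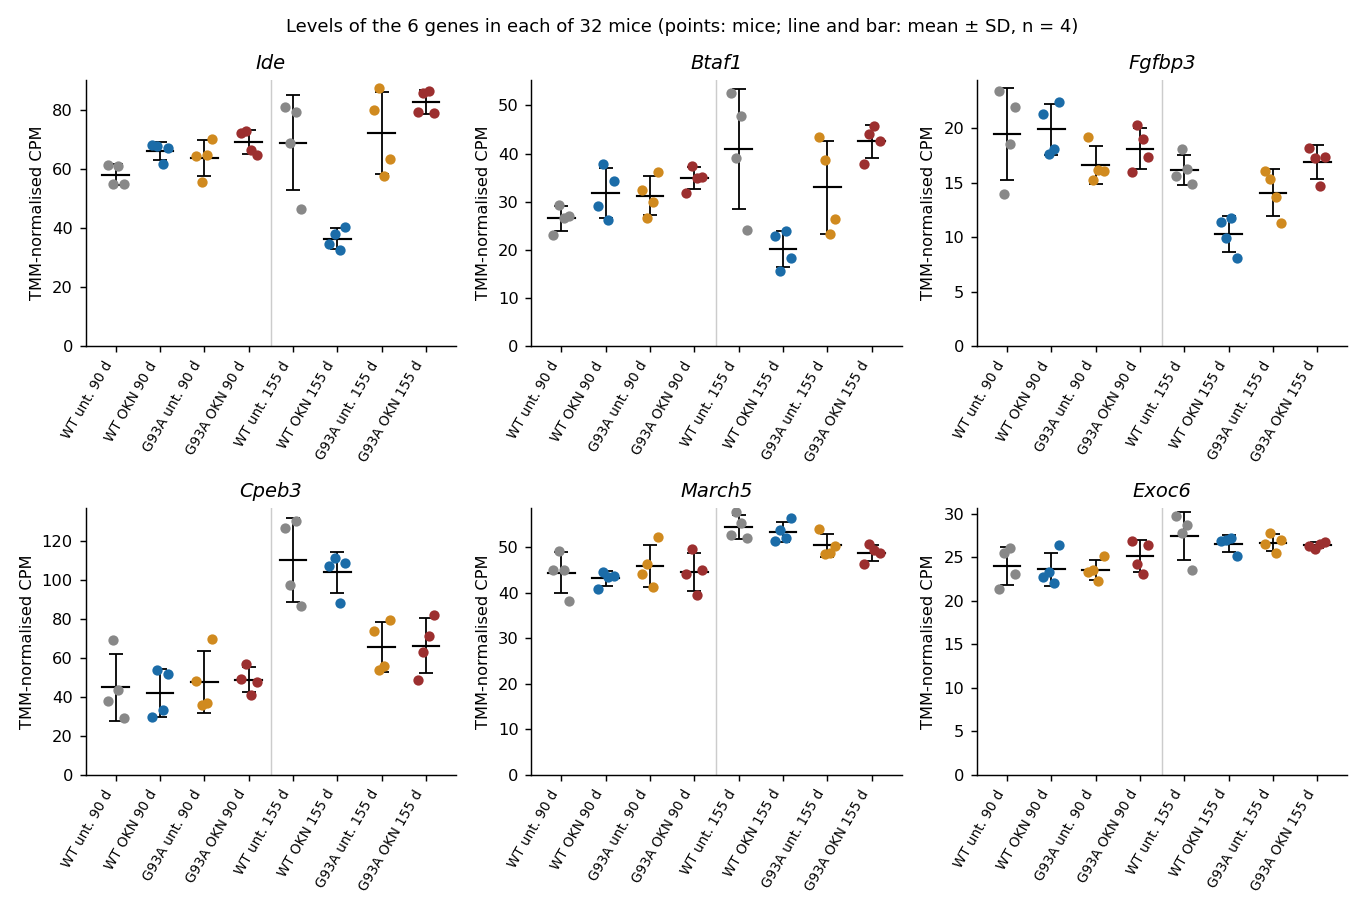
TMM-normalised CPM of Ide, Btaf1, Fgfbp3, Cpeb3, March5 and Exoc6 (vertical axes, from 0) in the 8 groups (horizontal axes; unt., untreated; OKN, OKN-007; d, days). Points are mice, and lines with bars are means ± SD of 4 mice. The treated WT mice of 155 days had the lowest Ide, at 32.5 to 40.4 CPM, and Cpeb3 was highest in both WT groups of 155 days.

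Within the WT mice of 155 days, Ide was 81.1, 68.8, 79.4 and 46.5 CPM in untreated mice 1 to 4 and 34.7, 38.1, 32.5 and 40.4 CPM in treated mice 5 to 8. Every treated mouse was below every untreated mouse, and untreated mouse 4 was the nearest to them. Treated over untreated, the log2 fold change was -0.93 (SE 0.15), and without mouse 4 it was -1.06.

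Btaf1 was 52.6, 39.1, 47.9 and 24.2 CPM in untreated mice 1 to 4 of the same groups and 22.8, 15.7, 23.9 and 18.4 CPM in treated mice 5 to 8. The groups did not overlap, although untreated mouse 4, which was also low in Ide, was only just above the treated mice. Btaf1 had a log2 fold change of -1.03 (SE 0.21), and of -1.2 without mouse 4.

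Fgfbp3 was 15.6, 18.1, 16.2 and 14.9 CPM in the 4 untreated mice and 11.4, 9.96, 11.8 and 8.09 CPM in the 4 treated mice. All treated mice were again the lower, and here mouse 4 was close to the other untreated mice. For Fgfbp3 the log2 fold change was -0.66 (SE 0.12). Among the treated mice the order was not shared, since mice 5 and 7 had the lowest Ide but the highest Btaf1 and Fgfbp3.

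The 3 other genes were at like levels in these treated and untreated WT mice. Cpeb3 was 126.5, 97.3, 130.3 and 86.8 CPM in the untreated and 107.1, 111.5, 88.2 and 108.8 CPM in the treated mice, with a log2 fold change of -0.10 (SE 0.16). The ranges of Cpeb3 overlapped throughout. March5 lay between 51.4 and 57.7 CPM and Exoc6 between 23.5 and 29.8 CPM in these 8 mice, with log2 fold changes of -0.04 (SE 0.06) and -0.06 (SE 0.07). Cpeb3 and March5, which stand between Btaf1 and Ide on the chromosome, were thus among the genes whose groups overlapped.

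In this comparison 3 of 6 genes did not overlap between treated and untreated mice, all lower in the treated, against 0.862% of 18675 genes that did not overlap and were lower. The median log2 fold change was -0.38 over the 6 genes and -0.02 over all genes tested. Since the genes were chosen with these values known, nothing follows from the contrast of the 2 shares. The edgeR quasi-likelihood test called 0 of the 18675 genes (0%) at an adjusted p under 0.05, with 549 genes (2.94%) at an unadjusted p under 0.05. The likelihood ratio test of edgeR called 4 genes and DESeq2 called 3 genes. Ide, Btaf1 and Fgfbp3 are among both, which restates the choice and is no test of them.

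Markers of other cells and of spinal level overlapped between the treated and untreated WT mice of 155 days in each list examined, and no listed marker was at 0 in every mouse. The summed level of 4 neuronal markers was 2548 to 2957 CPM in the untreated and 2602 to 2754 CPM in the treated mice. The 4 oligodendrocyte markers summed to 16460 to 17830 CPM and 15390 to 18090 CPM, the 4 microglial markers to 113.6 to 142.3 CPM and 109.6 to 122.9 CPM, and the 5 caudal Hox genes to 179.1 to 209.8 CPM and 193.8 to 233.6 CPM. The highest sums of the Schwann cell markers were 33.1 CPM in the treated and 4.30 CPM in the untreated mice.

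Within the untreated G93A mice of 155 days, the mice lower in Ide were also the lower in Btaf1. Their Ide stayed above the 32.5 to 40.4 CPM of the treated WT mice of 155 days, and the median over the 32 mice was 65.5 CPM. In untreated G93A mice 9 to 12, Ide was 79.8, 87.4, 57.8 and 63.4 CPM and Btaf1 was 43.5, 38.7, 23.3 and 26.4 CPM. Mice 11 and 12 were the lower pair for both genes, and their Fgfbp3, at 13.7 and 11.3 CPM, was below the 16.1 and 15.3 CPM of mice 9 and 10. Liver markers were raised in mouse 12, at 162.9 CPM against 6.77 CPM in mouse 11, and their part in the lower values was not tested. Neuronal markers were 1464 CPM in mouse 11 and 2117 CPM in mouse 12, the limits of their group.

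In treated G93A mice 13 to 16 of 155 days, Ide was 79.3, 85.7, 86.4 and 78.8 CPM, Btaf1 was 37.8, 44.0, 45.8 and 42.6 CPM and Fgfbp3 was 18.2, 17.3, 14.7 and 17.4 CPM. No mouse of this group was as low as untreated mice 11 and 12, and for all 3 genes the ranges of treated and untreated G93A mice overlapped. The log2 fold change of OKN-007 in these G93A mice was 0.21 (SE 0.15) for Ide, 0.38 (SE 0.21) for Btaf1 and 0.27 (SE 0.12) for Fgfbp3. In the edgeR fit the adjusted p of each was 1. Without untreated mouse 12, with its liver markers, the 3 values were 0.15, 0.29 and 0.18, and without treated mouse 15 they were 0.18, 0.34 and 0.33. Over leaving out each mouse, Ide ran from 0.115 (without untreated mouse 11) to 0.309 (without untreated mouse 10) and Btaf1 from 0.245 (without mouse 11) to 0.535 (without mouse 9).

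The test called 0 of the 6 genes in that comparison, as it called 0 of 18675 genes (0%). Fgfbp3 was the 1 gene of the 6 at an unadjusted p under 0.05 in edgeR, where 4.04% of all genes were, and 0 of 6 did not overlap against 3.08% of genes. DESeq2 called 0 of the 6 genes as well. The log2 fold changes of Cpeb3, March5 and Exoc6 were 0.02, -0.04 and -0.005, with SE of 0.16, 0.06 and 0.07. The genotype by treatment interaction of the 155 day groups, given as a description because it holds the WT mice, was 1.14 (SE 0.21) for Ide, 1.41 (SE 0.29) for Btaf1 and 0.94 (SE 0.17) for Fgfbp3 on the log2 scale, and lay between 0.00 and 0.11 for the other 3 genes. Over all genes the edgeR test called 0% for the interaction, with 2.34% at an unadjusted p under 0.05.

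**Figure D2:**
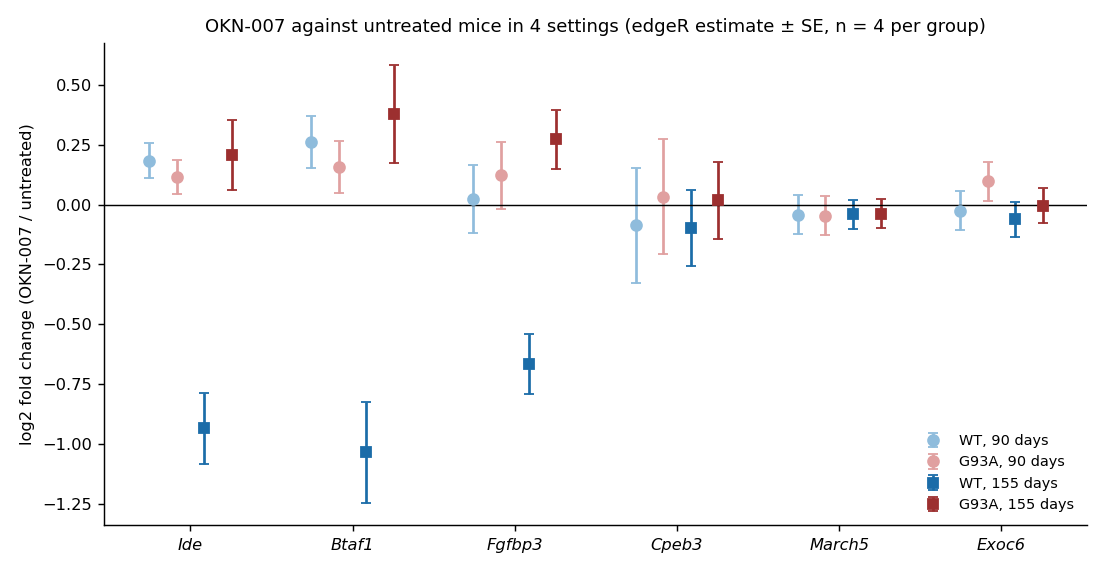
Log2 fold change of OKN-007 treated over untreated mice (vertical axis, edgeR estimate with SE bars, 4 mice per group) for the 6 genes (horizontal axis) in WT and G93A mice of 90 days (circles) and 155 days (squares). Ide, Btaf1 and Fgfbp3 stood at -0.93, -1.03 and -0.66 in WT mice of 155 days, and their estimates in the other settings lay between 0.02 and 0.38.

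At 90 days the same WT comparison was made in other mice. Ide was 61.5, 55.1, 61.1 and 54.9 CPM in untreated mice 1 to 4 and 68.0, 67.8, 61.6 and 67.1 CPM in treated mice 5 to 8. The treated mice were higher without overlap, which is the opposite order to that at 155 days, and treated mouse 7 was close to the untreated mice. The log2 fold change was 0.18 (SE 0.07), with an adjusted p of 0.993 in edgeR, so Ide did not pass. Without untreated mouse 3, with its Schwann cell markers, it was 0.21 (adjusted p = 1 in edgeR).

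Btaf1 was 23.1, 29.4, 26.7 and 27.1 CPM in the untreated and 29.1, 37.8, 26.2 and 34.3 CPM in the treated WT mice of 90 days, with 2 treated mice inside the untreated range. Its log2 fold change was 0.26 (SE 0.11, adjusted p = 0.993 in edgeR), and 0.26 without mouse 3. Over leaving out each mouse, including treated mouse 6 with its liver markers, it ran from 0.185 to 0.341. Fgfbp3 was 13.96 to 23.4 CPM in the untreated and 17.7 to 22.4 CPM in the treated mice, with a log2 fold change of 0.02 (SE 0.14) that changed sign with the mouse left out, from -0.116 to 0.127, and was -0.0013 without mouse 3. Cpeb3 ranged from 28.9 to 69.3 CPM and from 29.7 to 54.0 CPM, so that single mice differed more than the groups. In this comparison 0 of 6 genes were called (0% of 18899 genes), 2 of 6 were at an unadjusted p under 0.05 (4.07%) and 1 of 6 did not overlap (2.03%). DESeq2 called 0 of the 6 genes.

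In G93A mice of 90 days the OKN-007 differences were small for every one of the 6 genes. Ide was 64.3, 55.8, 64.7 and 70.3 CPM in untreated mice 9 to 12 and 72.3, 72.7, 66.3 and 64.8 CPM in treated mice 13 to 16. The groups overlapped, with a log2 fold change of 0.11 (SE 0.07, adjusted p = 0.837 in edgeR). Btaf1 and Fgfbp3 had log2 fold changes of 0.16 (SE 0.11) and 0.12 (SE 0.14). Without untreated mouse 10 the values of Ide, Btaf1 and Fgfbp3 were 0.06, 0.09 and 0.0847. Fgfbp3 ran from 0.0697 to 0.201 over leaving out each mouse. The test called 0 of 6 genes (0% of all genes), 0 of 6 were at an unadjusted p under 0.05 (5.56%), 0 of 6 did not overlap (2.87%), and DESeq2 also called 0 of 6.

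Between genotypes at 90 days, G93A over WT, the largest of the 6 log2 fold changes in untreated mice was that of Btaf1, 0.24 (SE 0.11, adjusted p = 0.822 in edgeR). Its 4 G93A mice ran from 26.6 to 36.2 CPM and its 4 WT mice from 23.1 to 29.4 CPM, and these ranges overlapped. The value was 0.24 without WT mouse 3 and 0.30 without G93A mouse 10. Fgfbp3 was -0.23 (SE 0.14) in the same comparison, and ran from -0.365 (without WT mouse 2) to -0.123 (without WT mouse 1). Ide was 0.13 (SE 0.07), and 0.19 without G93A mouse 10. The test called 0 of 6 genes against 0% of all genes, 1 of 6 against 5.96% was at an unadjusted p under 0.05, and 0 of 6 against 2.39% did not overlap. Between treated mice of 90 days it also called 0 of 6 (0%), with 0 of 6 at an unadjusted p under 0.05 (3.95%) and 0 of 6 without overlap (2.85%). The interaction at 90 days called 0 of 6 (0%), with 0 of 6 at an unadjusted p under 0.05 (2.81%) and log2 values from -0.10 to 0.12. DESeq2 called 0 of the 6 genes in these 3 comparisons.

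At 155 days Cpeb3 was lower in G93A than in WT mice whether untreated or treated, which is a description here because the WT mice were used in the choice. In untreated G93A mice 9 to 12 it was 73.7, 53.9, 55.8 and 79.4 CPM, all below the 86.8 to 130.3 CPM of the untreated WT mice. The log2 fold change was -0.73 (SE 0.16) between untreated mice and -0.62 (SE 0.16) between treated mice. Markers of neurons, in which Cpeb3 is known to act, were lower in the same mice, at 1464 to 2117 CPM in untreated G93A against 2548 to 2957 CPM in untreated WT mice. Microglial markers were higher, at 336.8 to 530.5 CPM against 113.6 to 142.3 CPM. Their part in the Cpeb3 difference was not tested.

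Ide differed between genotypes at 155 days by 0.08 (SE 0.15) on the log2 scale in untreated mice and by 1.22 (SE 0.15) in treated mice. The corresponding values were -0.30 (SE 0.21) and 1.11 (SE 0.21) for Btaf1 and -0.19 (SE 0.12) and 0.75 (SE 0.12) for Fgfbp3. The differences of the treated mice were thus on the side opposite to Cpeb3. Between untreated mice 1 of 6 genes did not overlap, where 32.7% of 18675 genes did not and 39.5% were called. Between treated mice 5 of 6 did not overlap, where 44.4% of genes did not and 41.5% were called. The genes were chosen with the values of these treated WT mice known, so nothing is read from these counts.

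With age, the log2 fold changes of Cpeb3, March5 and Exoc6 were above 0 and those of Fgfbp3 below 0 in each of the 4 arms. None of these genes passed the test in G93A mice. The treated WT arm holds values of 155 days that were known when the genes were chosen. In the design of the study, mice killed near these ages belong to separate cohorts. For treated mice, the later cohorts also differ in the length or the start of treatment. Age therefore cannot be told apart from cohort or, in treated mice, from treatment. In untreated G93A mice, where age was tested, Cpeb3 was 48.2, 35.7, 36.9 and 69.9 CPM at 90 days and 73.7, 53.9, 55.8 and 79.4 CPM at 155 days. One mouse of 90 days was within the later range. The log2 fold change of age was 0.46 (SE 0.22), with an adjusted p of 0.115 in the edgeR fit of 32 mice. Exoc6 had 0.18 (SE 0.08, adjusted p = 0.0651 in edgeR), March5 0.13 (SE 0.07, adjusted p = 0.182) and Fgfbp3 -0.24 (SE 0.14, adjusted p = 0.166). With single mice left out, Exoc6 ran from 0.135 to 0.217, March5 from 0.0809 to 0.202 and Fgfbp3 from -0.328 to -0.166. Ide, at 0.18 (SE 0.12), and Btaf1, at 0.07 (SE 0.18), did not pass either, and over leaving out each mouse they ran from 0.0421 to 0.27 and from -0.104 to 0.209.

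The test therefore called 0 of 6 genes with age in untreated G93A mice, where it called 33.7% of 19829 genes, with 2 of 6 at an unadjusted p under 0.05 (43.1%) and 1 of 6 without overlap (27.6%). DESeq2 called 0 of the 6. Without untreated G93A mouse 12 of 90 days, 3 of the 6 genes were called, Cpeb3 at 0.71 (adjusted p = 0.0175 in edgeR), March5 at 0.20 (0.0421) and Exoc6 at 0.22 (0.0414). That mouse had the highest Cpeb3, March5 and Exoc6 of its group. Without mouse 10 of 90 days, or mouse 12 of 155 days, 0 of the 6 were called, and Cpeb3 was at 0.33 (adjusted p = 0.33 in edgeR) or 0.34 (adjusted p = 0.291 in edgeR).

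In treated G93A mice Ide had a log2 fold change with age of 0.26 (SE 0.12, adjusted p = 0.101 in edgeR; 0.22 without mouse 15 of 155 days), with 64.8 to 72.7 CPM at 90 days and 78.8 to 86.4 CPM at 155 days and no overlap. Cpeb3 had 0.44 (SE 0.22, adjusted p = 0.133 in edgeR; 0.39 without mouse 15 of 155 days). Its ranges, 41.2 to 57.0 CPM and 48.5 to 82.2 CPM, overlapped. The test called 0 of 6 genes there (32.9% of all genes), 1 of 6 was at an unadjusted p under 0.05 (41.8%) and 2 of 6 did not overlap (36.9%). Both Ide and Btaf1 were higher at the later age without overlap in these mice. DESeq2 called 0 of the 6.

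In WT mice the age differences are a description. Cpeb3 was 28.9 to 69.3 CPM at 90 days and 86.8 to 130.3 CPM at 155 days in untreated mice, a log2 fold change of 1.30 (SE 0.23), and the same 1.30 (SE 0.23) was found in treated mice. March5 had 0.29 (SE 0.07) and 0.31 (SE 0.07). Ide, Btaf1 and Fgfbp3 had 0.25 (SE 0.12), 0.62 (SE 0.18) and -0.27 (SE 0.13) in untreated and -0.86 (SE 0.12), -0.66 (SE 0.18) and -0.95 (SE 0.14) in treated WT mice. In untreated WT mice 2 of 6 genes did not overlap between ages, where 18.9% of 19829 genes did not and 24.9% were called. In treated WT mice 5 of 6 did not overlap, where 31.6% of genes did not and 31.3% were called. The genes were chosen with the values of these mice at 155 days known. Oligodendrocyte markers moved with age in every arm, from between 23450 and 42690 CPM in the 16 mice of 90 days to between 15390 and 19450 CPM in the 16 of 155 days, and their part in the age differences was not tested.

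Per length, March5 was the most abundant of the 6 genes, with a mean level of 20 CPM per kb of exon over the 32 mice. Fgfbp3 followed at 9.28, Cpeb3 at 8.93, Ide at 8.61, Exoc6 at 7.17 and Btaf1 at 3.18 CPM per kb. The ratio of the highest to the lowest mouse was 4.50 for Cpeb3, 3.35 for Btaf1, 2.90 for Fgfbp3, 2.69 for Ide, 1.51 for March5 and 1.40 for Exoc6. March5 and Exoc6 thus varied least between mice.

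The genes were next compared mouse by mouse. Levels were taken as log2(CPM + 0.5) and centred on each group mean, so that differences between groups did not enter, and the 32 mice share tissue, library method and table. Ide and Btaf1 had the highest r among the pairs with Ide, with Pearson r = 0.70 and Spearman rho = 0.49. The value was 0.77 in the 16 mice of 155 days and 0.37 in the 16 of 90 days, and it was 0.52 without untreated WT mouse 4 of 155 days. The 2 mice farthest from the median of centred Ide were WT mouse 4 and untreated G93A mouse 11 of 155 days. Without them r was 0.37 (rho 0.25), an alternative chosen after seeing the data. Without the 2 mice farthest from the median of Ide before centring, r was 0.86 (rho 0.67). The value thus depended on which mice were left out. Over leaving out each mouse r ran from 0.515 to 0.777. Ide and Fgfbp3 had r = 0.17 (rho 0.12), Ide and Cpeb3 0.32 (0.34), Ide and March5 0.28 (0.40) and Ide and Exoc6 0.45 (0.25). The last was 0.15 without the same WT mouse 4 and 0.074 without both that mouse and G93A mouse 11.

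Among the other pairs, Cpeb3 and March5, whose starts overlap, had the highest r, 0.70 (rho 0.65). Btaf1 and Exoc6 had 0.57 (0.47), Cpeb3 and Exoc6 0.53 (0.50) and Btaf1 and Cpeb3 0.44 (0.48). Fgfbp3 went against Cpeb3, with r = -0.37 (rho -0.24). Btaf1 and its near neighbour Fgfbp3, which were low in the same 4 treated WT mice, had r = 0.24 (rho 0.24) within groups.

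**Figure D3:**
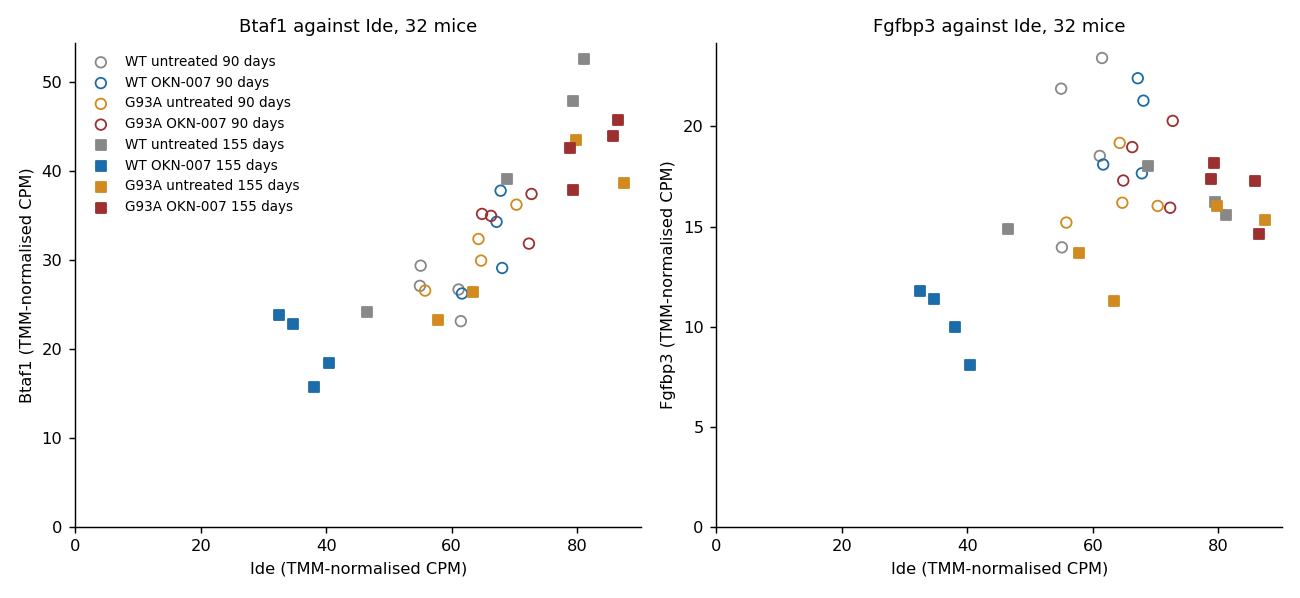
Level of Btaf1 (left) and Fgfbp3 (right) against Ide in 32 mice, all in TMM-normalised CPM on axes from 0, with open circles for mice of 90 days and filled squares for mice of 155 days, coloured by group. The 4 treated WT mice of 155 days, at 32.5 to 40.4 CPM of Ide, lie apart at the lower left of both plots, with untreated WT mouse 4 of 155 days, at 46.5 CPM, next to them for Btaf1 only.

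Btaf1 had rank 3 among 15523 genes by its within-group r with Ide. The 8 genes most like Ide were Agps (r = 0.73), a peroxisomal enzyme of ether lipid synthesis, Polk (0.72), a translesion DNA polymerase, Btaf1 (0.70), Slc25a35 (0.69), Akap10 (0.69), which anchors protein kinase A, Lbh (0.69), Kazn (0.68) and Rtn4 (0.68), which encodes the myelin-associated protein Nogo. None of the 7 others lies on chromosome 19. The 3 genes most opposite to Ide were Rnf8 (-0.78), Tmem114 (-0.77) and Gm6863 (-0.74). In all, 3 genes reached 0.7 and 5 genes -0.7 or below. The list was not stable, since without untreated WT mouse 4 of 155 days 1 of the 8 genes stayed among the first 8 and Btaf1 ranked 391. Without that mouse and untreated G93A mouse 11, 0 of the 8 stayed.

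Around Ide, 40 genes of the table start within 1 Mb, and 17 of these had a mean of at least 1 CPM. The 11 of them that are not among the 6 had r with Ide between -0.46 and 0.51, and Tnks2, which encodes the poly-ADP-ribose polymerase tankyrase-2 and starts beyond Fgfbp3, was the only one at 0.5 or above. In WT mice of 155 days their log2 fold changes for OKN-007 lay between -0.34 and 0.10. The lowest was that of Hhex, a homeobox gene, at -0.34 (SE 0.27), and Tnks2 was at -0.02 (SE 0.08). Kif11, a mitotic kinesin and the nearest of these genes to Ide, was at 0.10 (SE 0.23).

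**Figure D4:**
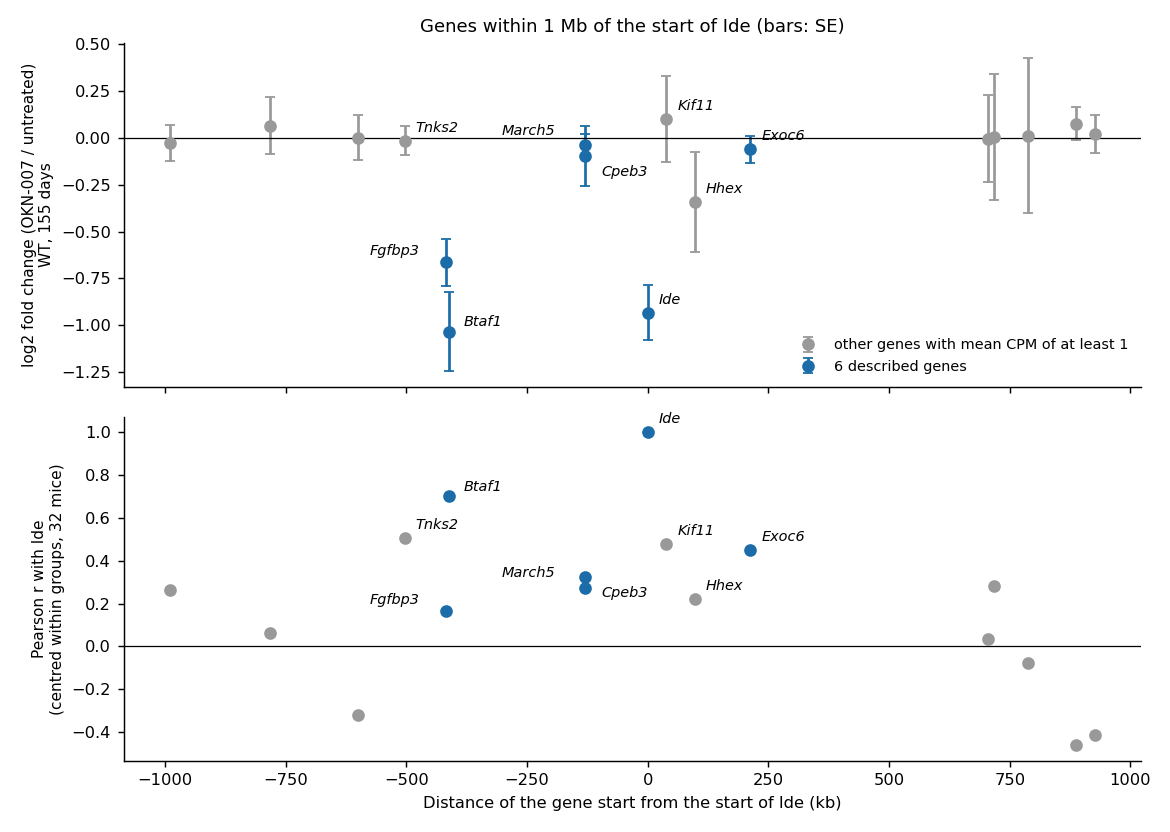
Genes with a mean of at least 1 CPM that start within 1 Mb of Ide, by distance of their start from that of Ide in kb (horizontal axis). The upper panel gives the log2 fold change of OKN-007 in WT mice of 155 days with SE bars and the lower panel Pearson r with Ide over 32 mice, centred within groups, with Ide itself at 1. Ide, Btaf1 and Fgfbp3 are the 3 low points in the upper panel, while Cpeb3 and March5 between them stand at -0.10 and -0.04.

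The pathways around the 6 genes were read from 7 lists that hold 76 further genes, of which 75 were tested. In each OKN-007 comparison and each comparison at 90 days the edgeR test called 0 of the 75. It called 0% of all genes there, so nothing about these pathways follows. In untreated G93A mice 18 of the 75 were higher and 4 lower at 155 than at 90 days, and in treated G93A mice 17 were higher and 6 lower. Without untreated G93A mouse 10 of 90 days the counts in untreated mice were 14 and 4, and without mouse 12 of 155 days 16 and 4. In treated mice they were 14 and 5 without mouse 15 of 155 days. Shares of all genes called in these directions were 21% and 12.8% in untreated and 19.8% and 13.1% in treated mice. The lists moved with age in WT mice too, given as a description. There 27 of the 75 were higher and 2 lower in untreated mice, and 25 and 4 in treated mice. Of all 19829 genes, 24.9% and 31.3% were called there in either direction. Split by direction, 3028 genes were higher and 1905 lower in untreated WT mice, and 3530 and 2679 in treated WT mice.

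Among the peptidases related to Ide by family or substrate, 3 of 15 were higher and 1 lower with age in untreated G93A mice, with a median log2 fold change of 0.03 against 0.01 over all genes. Nln, which encodes neurolysin, a peptidase of neuropeptides, rose from 20.8 ± 3.25 to 37.7 ± 6.4 CPM (SD, n = 4), a log2 fold change of 0.85 (SE 0.11, adjusted p = 1.8e-07 in edgeR). Pitrm1, a mitochondrial peptidase of the family of Ide, rose by 0.35 (SE 0.06, adjusted p = 6.81e-05 in edgeR). Ece1, which encodes an endothelin-converting enzyme that also cleaves amyloid-beta, rose by 0.40 (SE 0.09), and Mmel1, a relative of neprilysin, fell by 0.56 (SE 0.17). In WT mice, given as a description, Ece1 rose with age by 0.35 in treated mice and Pitrm1 by 0.168 in untreated mice. Of the 16 genes of the insulin receptor pathway, 7 were higher and 0 lower, with a median of 0.22, and 4 were higher without mouse 10 of 90 days. Ptpn1, a phosphatase that acts on the insulin receptor, rose by 0.83 (SE 0.09, adjusted p = 4.04e-09 in edgeR) and Irs1, an adaptor of that receptor, by 0.46 (SE 0.12, adjusted p = 0.00329 in edgeR). Shc1, an adaptor of receptor tyrosine kinases, rose by 0.60 (SE 0.10). Slc2a4, the insulin-responsive glucose transporter, rose by 1.16 (SE 0.31, adjusted p = 0.00401 in edgeR), but its value was 0.51 (adjusted p = 0.116 in edgeR) without mouse 11 of 155 days.

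Among the fibroblast growth factor genes around Fgfbp3, 4 of 14 were higher and 1 lower with age in untreated G93A mice. The ligand Fgf2 rose from 10.3 ± 2.79 to 58.6 ± 18.4 CPM (SD, n = 4), a log2 fold change of 2.50 (SE 0.21, adjusted p = 9.89e-11 in edgeR), and the receptor Fgfr1 rose by 0.70 (SE 0.08, adjusted p = 2.49e-08 in edgeR). The receptor Fgfr4, at a low level, rose from 0.632 ± 0.358 to 3.17 ± 0.868 CPM (SD, n = 4), a log2 fold change of 2.34 (SE 0.33, adjusted p = 1.41e-06 in edgeR). The ligand Fgf9 fell by 0.79 (SE 0.12, adjusted p = 2.97e-06 in edgeR). Microglial markers in those groups were 135.5 to 186.9 CPM at 90 and 336.8 to 530.5 CPM at 155 days. Astrocyte markers were 1909 to 2134 CPM and 2963 to 3438 CPM, and neuronal markers 1891 to 2647 CPM and 1464 to 2117 CPM. The part of these cell types in the changes was not tested. Of the exocyst subunits 2 of 8 were higher, Exoc2 by 0.45 (SE 0.10, adjusted p = 0.000504 in edgeR) and Exoc4 by 0.39 (SE 0.10, adjusted p = 0.0024 in edgeR). Of the CPEB family 0 of 3 were called. Some of these rises were also seen with age in WT mice, given as a description. There Exoc2 rose by 0.512 in untreated and 0.553 in treated mice, Exoc4 by 0.345 and 0.271 and Fgfr1 by 0.395 and 0.454.

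Of the genes of mitochondrial dynamics around March5, 1 of 11 was higher and 1 lower with age in untreated G93A mice. Fis1, a fission factor of the outer membrane, fell by 0.45 (SE 0.11, adjusted p = 0.00265 in edgeR), and Mfn2, a mitofusin, rose by 0.27 (SE 0.10, adjusted p = 0.0414 in edgeR). Mfn2 was not called in 5 of the 8 fits that left out 1 mouse of the groups, with an adjusted p of up to 0.189 in edgeR, while the other genes named from the lists in untreated mice, apart from Slc2a4, stayed called in each. Of the regulators of TATA-binding protein around Btaf1, 1 of 8 was higher and 1 lower. These were both subunits of negative cofactor 2, with Dr1 at 0.30 (SE 0.08, adjusted p = 0.00248 in edgeR) and Drap1 at -0.32 (SE 0.10, adjusted p = 0.011 in edgeR). In treated G93A mice the same lists gave 2 higher and 1 lower peptidases, 8 and 0 insulin pathway genes, 4 and 3 fibroblast growth factor genes, 2 and 0 exocyst subunits, 0 and 0 of the CPEB family, 0 and 1 mitochondrial genes and 1 and 1 regulators of TATA-binding protein. Mfn2 also rose with age in WT mice, by 0.506 in untreated and 0.596 in treated mice, as a description. In treated WT mice Fis1 and Drap1 fell with age too, with log2 fold changes of -0.523 and -0.39.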

How the data were processed

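RNA from pieces of spinal cord was made into stranded mRNA libraries, 1 for each of 32 mice. The authors deposited 1 table of raw counts per gene and mouse, which is not normalised and from which genes with a sum under 2 were absent. The paper names HTSeq with GENCODE M10, the submitters' processing notes name featureCounts and GRCm39, and 820 identifiers of a later series are absent from GENCODE M21, so the annotation of the counting is not settled. Positions and exon lengths are those of GENCODE M21 and serve as reference only. Between 19701722 and 30138257 reads were counted per mouse (median 26658755), and 3 counts in the smallest library equal 0.152 CPM. No libraries were identical (0 pairs), and the closest pair within a group had a chi-square of 3.57 per gene.

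Counts were fitted in edgeR 4.0.16 (R 4.3.3) with filterByExpr, TMM, glmQLFit and glmQLFTest, for the 16 mice of each age as 4 groups and for all 32 mice where ages were compared. All genes tested entered the Benjamini-Hochberg adjustment, and 0.05 was the threshold. Correlations used log2(CPM + 0.5). The fits were checked on simulated counts. DESeq2 1.42.0, the likelihood ratio test, other scalings, filters and sample sets, and leaving out each mouse were the alternatives. The members, the pathway and marker lists and the comparisons were chosen with earlier results of these data known. The genes named are the 6 genes, the 8 most and 3 least like Ide, the genes within 1 Mb of it with r of at least 0.5, and up to 4 genes per list with the smallest adjusted p, while Hhex and Kif11 were named after their values were seen.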

Additional observations from a re-analysis of the deposited data

Results flagged for a closer look

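In a group of 4, treated WT mouse 7 of 90 days had the lowest Ide, 61.63 CPM, at a distance from the next mouse (67.14 CPM) that was large for the range of its group. Of the 48 sets of 4 values examined, 1 was so flagged, while chance flags about 1 in 20, or 2.4 of 48. Without that mouse the log2 fold change of Ide for OKN-007 in WT mice of 90 days was 0.21.

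In 10 pairs of comparisons every mouse of one comparison moved one way and every mouse of the other the opposite way, relative to the mean of the group each was compared with. All 10 rest on the treated WT mice of 155 days, whose values chose the genes. The pairs in which both comparisons are of 155 days correspond to the interaction given above as a description. Its edgeR test called 0% of all genes. For the other pairs no difference between the comparisons was tested. The log2 fold change of Ide for OKN-007 in those WT mice, -0.9322, stood against 0.1833 in WT mice of 90 days, 0.1148 in G93A mice of 90 days and 0.206 in G93A mice of 155 days. Btaf1, at -1.034, stood against 0.1564 in G93A mice of 90 days and 0.3775 in G93A mice of 155 days, and Fgfbp3, at -0.6639, against 0.2722 in G93A mice of 155 days. For the G93A over WT difference, Fgfbp3 had -0.2257 in untreated mice of 90 days and -0.1867 in untreated mice of 155 days, against 0.7494 in treated mice of 155 days. With age, Ide had -0.8609 and Btaf1 -0.6591 in treated WT mice, against 0.2588 and 0.2875 in treated G93A mice.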

How the results depend on the processing

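Counts of the 6 genes called in comparisons that hold the WT mice of 155 days restate how the genes were chosen and support nothing. For OKN-007 in WT mice of 155 days the count was 0, 3 with DESeq2, 3 with no filter on low counts, 3 with the likelihood ratio test and 2 with all 32 mice in one fit, and 0 to 2 with single mice left out. For the interaction at 155 days it was 0, and 3, 3, 3 and 1 under the same alternatives, and 0 to 1 with single mice left out. Leaving out untreated WT mouse 4 of 155 days gave the 2 and the 1. Other scalings, at least 10 counts in every mouse and, where run, the WT groups of 155 days alone gave 0. Over all genes, the 8 comparisons with 0 calls had 3 to 39 with no filter on low counts, 0 to 11 with DESeq2 and with the likelihood ratio test and 0 to 2 with all 32 mice in one fit, and the 6 of them that compare 2 groups had 0 to 3 with those groups alone. Leaving out single mice gave 1 to 2 called genes for G93A over WT in untreated mice of 155 days (2 without WT mouse 4), 2 to 5 for age in untreated WT mice (5 without mouse 4 of 155 days or mouse 2 of 90 days) and 0 to 3 for age in untreated G93A mice (3 without mouse 12 of 90 days). An adjusted p under 0.10 called 1 gene in the last. Of the 75 further pathway genes, 14 to 25 were higher with age in untreated G93A mice with single mice left out. The cause of these differences was not tested. The sample numbers repeat between ages, but over 16 pairs the correlation of deviations ran from -0.24 to 0.31, with 3 over 0.1 and 3 mice closest to their own number, so the numbers were not taken to pair the mice. With the number as a replicate block, 1 gene was called for age in untreated G93A mice, Cpeb3 at 0.49 (adjusted p = 0.0353 in edgeR), and no other count changed. Values near 0 changed sign. With single mice left out, Fgfbp3 for OKN-007 in WT mice of 90 days ran from -0.116 to 0.127, Cpeb3 and Exoc6 for OKN-007 in G93A mice of 155 days from -0.0975 to 0.137 and from -0.0253 to 0.0117, and Btaf1 with age in untreated G93A mice from -0.104 to 0.209. Exoc6 in G93A mice of 155 days was 0.0132 with total counts only. The r of Ide and Btaf1 was 0.373 in mice of 90 days. Leaving out the 2 mice farthest in centred Ide, an alternative chosen after seeing the data, gave an r with Ide of 0.367 for Btaf1 and 0.074 for Exoc6 and kept 0 of the 8 genes most like Ide. Leaving out the 2 mice farthest in Ide before centring gave an r with Ide of 0.856 for Btaf1. Without centring, the treated WT mice of 155 days enter as a separate cluster. There r with Ide was 0.849 for Btaf1, 0.571 for Fgfbp3, -0.211 for Cpeb3 and -0.148 for March5. Of the 8 genes most like Ide, 1 stayed without centring, 3 without the 2 mice farthest in Ide before centring, 0 in mice of 90 days, 1 in mice of 155 days and 1 to 8 with single mice left out. The 4 mice per group limit what can be resolved, and the depth gave 229 to 3410 reads per gene and mouse.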
